A study of Mus musculus with 7 samples.

Results

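Genes of 7 solute carrier families that move amino acids across membranes (SLC1, SLC3, SLC6, SLC7, SLC36, SLC38 and SLC43) were examined in 2 mouse T-cell leukemias. Members were all genes whose symbol begins with the name of 1 of these families, measured by a probe set with exactly 1 symbol. Where a gene had several such probe sets, the one with the highest mean over the 7 arrays stood for it. This gave 63 members of 18193 genes, with 125 probe sets in all. The 63 symbols include 3 genes named for the opposite strand of a transporter gene (Slc6a19os, Slc7a6os and Slc36a1os), which are no carriers and are counted because the naming rule takes them in. Slc38a8 and Slc38a11 were not analysed here.

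Leukemic cells of terminally ill C57Bl/6 mice were hybridised to Affymetrix expression arrays, 1 array per cell suspension. ICN1 cells (3 arrays) came from bone marrow of mice whose leukemia was induced by ICN1, an activated form of the receptor NOTCH1. TEL-JAK2 cells (4 arrays) came from thymus of mice whose leukemia was induced by the fusion kinase TEL-JAK2. Genotype and tissue cannot be told apart, because each leukemia was taken from 1 tissue. Neither normal thymus nor normal marrow was compared here, and the labels name no cell sorting. The age of the mice was not given in the sources used here. Labels give each array an identifier of its own but do not say outright that these are separate animals, so that p-values measure the spread between these suspensions. Values are log2 expression after the authors' RMA normalization, with array medians of 5.44 to 5.5.

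Purity of the suspensions was not measured, and transcripts of genes known from other cell types were detected in them. Of 14 T-lineage genes measured, 13 lay above background in ICN1 cells and 14 in TEL-JAK2 cells, and the list averaged 10.80 to 11.43 on the ICN1 arrays and 11.50 to 12.05 on the TEL-JAK2 arrays. Of 11 erythroid genes, 9 were higher in ICN1 cells (81.8%, where 12.2% of all genes were). The erythroid list had a mean of 11.26 to 11.49 on the ICN1 arrays and 5.99 to 6.31 on the TEL-JAK2 arrays. Of 12 monocyte and macrophage genes, 6 were higher in ICN1 cells (50%). The means of that list were 8.81 to 10.13 on the ICN1 arrays and 6.27 to 8.48 on the TEL-JAK2 arrays. In such bulk samples fewer cells of a type and less RNA per cell cannot be told apart. ICN1 replicates 1 and 2 held both Xist (11.51 and 11.78) and the Y-linked Eif2s3y (8.93 and 9.41), whereas ICN1 replicate 3 held Xist at 12.09 with Eif2s3y at 3.25. TEL-JAK2 replicate 4 held Xist at 5.19 and Eif2s3y at 10.23, against 13.12 to 13.36 and 3.18 to 3.29 on the other TEL-JAK2 arrays. Results that change without ICN1 replicates 1 and 2 are given below with that fit. There the single remaining ICN1 array is assumed to vary like the TEL-JAK2 arrays.

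Amino acid transporters set how fast a dividing cell can take up building blocks and nitrogen. Exchangers such as LAT1, a complex of the light chain Slc7a5 and the heavy chain Slc3a2, import leucine and other large neutral amino acids while exporting another amino acid, often glutamine. Sodium-coupled carriers such as ASCT2 (Slc1a5), SNAT1 (Slc38a1) and SNAT2 (Slc38a2) supply that glutamine, and carriers on the lysosome pass amino acids back to the cytosol and report their level to the kinase complex mTORC1. Activated T cells and T-cell leukemias are known to raise several of these carriers.

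Which transporters each leukemia expressed was read against a background level, since no detection calls were used. On each array the bound was the 95th percentile of 77 olfactory, vomeronasal and taste receptor genes, which blood cells are not known to use, and it lay at 5.48 to 5.68 on the ICN1 arrays and at 5.55 to 5.76 on the TEL-JAK2 arrays. A member counted as above background in a leukemia when it exceeded the bound on every array. Only the probe set that stood for the gene was read. By this description 30 of 63 members (47.6%) were above background in ICN1 cells and 26 (41.3%) in TEL-JAK2 cells, against 53.9% and 52.7% of all 18193 genes. Both leukemias shared 25 members. Slc38a5, Slc6a20a, Slc7a7, Slc6a13 and Slc1a3 were above background in ICN1 cells alone, and Slc6a19 in TEL-JAK2 cells alone. The other 32 members were not above background in either leukemia.

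The division between the leukemias was firm for few of these 6 genes. With the 99th percentile as the bound, 20 members were above background in ICN1 cells and 18 in TEL-JAK2 cells, 16 of them in both. Slc38a5 and Slc6a20a kept their place with that bound, and Slc6a19 did too. Slc1a3, a carrier of glutamate and aspartate, read 5.88, 5.94 and 6.05 on the ICN1 arrays and 5.73, 5.74, 5.61 and 6.10 on the TEL-JAK2 arrays. The groups overlapped and the difference of 0.17 ± 0.13 was not called. Further probe sets of Slc1a3 averaged only 3.45 to 4.7 in ICN1 cells, under the bounds. With the probe sets of each gene averaged, 27 members were above background in ICN1 cells and 23 in TEL-JAK2 cells, 21 of them in both.

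**Figure D1:**
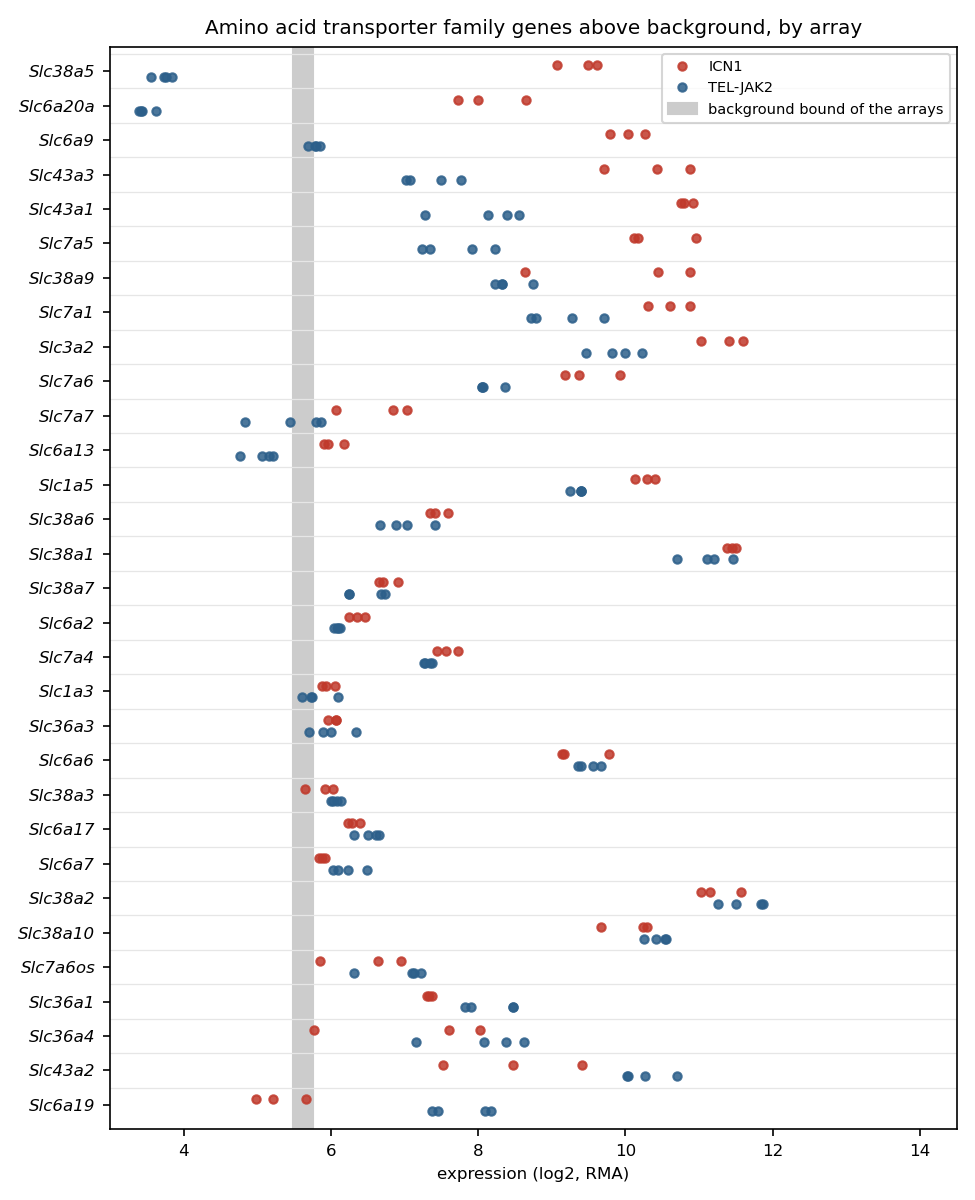
Expression (log2, RMA) of the 31 members above background in at least 1 leukemia, with 1 point per array, ICN1 (3 arrays, red) drawn above TEL-JAK2 (4 arrays, blue) in each row, ordered by the difference. The grey band spans the background bounds of the arrays, 5.48 to 5.76. Slc38a5 and Slc6a20a lie right of the band on the ICN1 arrays and left of it on the TEL-JAK2 arrays. Slc6a19 shows the opposite, except that ICN1 replicate 2 (5.66) lies within the band.

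Levels were compared gene by gene with limma. Calls were made where the p-value, adjusted by Benjamini and Hochberg's method across the 18193 genes, was under 0.05. Each difference is ICN1 minus TEL-JAK2 in log2 units, followed by its standard error (SE) from the fit. Of the 63 members, 15 were higher in ICN1 cells (23.8%, where 12.2% of all genes were) and 3 were lower (4.76%, where 11.9% of all genes were), so that 28.6% were called in either direction, against 24.1% of all genes. The remaining 45 were not called. The median difference was 0.04 over the members and -0.04 over all genes. The groups did not overlap in 17 members higher in ICN1 cells (15.9% of all genes did this) and in 5 lower ones (18.4% of all genes), where 34.3% of all genes were apart in either direction. Of the 18 called members, 12 kept their call in each of the 7 fits without 1 array.

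The counts stayed at 15 higher and 3 lower with quantile normalization applied again or median centring, and were 16 and 3 with cyclic loess. These scalings, like the authors' own, draw the arrays to a common level. The calls depend on that choice. When each array was centred on the average level of Cd3d, Cd3e, Cd3g and Cd247, genes of the CD3 complex, the median of all genes moved to 0.58 and 47 members were called higher in ICN1 cells and 2 lower, with 11410 of all genes higher and 787 lower. Under the authors' scaling Cd3d (-0.51), Cd3g (-0.68) and Cd247 (-0.88) were called lower in ICN1 cells, and Cd3e (-0.41) was not called. Centring on these genes therefore raised every difference. The calls of Slc6a19 (-1.87) and Slc43a2 (-1.17, adjusted p = 0.0157) were the 2 lower ones left. Slc38a1 (0.95, adjusted p = 0.00953), Slc38a9 (2.20, adjusted p = 0.00844) and Slc7a11 (0.72, adjusted p = 0.0262) were called higher only under that centring among the alternative scalings.

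Without ICN1 replicates 1 and 2, 9 members were called higher in ICN1 cells and 3 lower. Slc3a2, Slc7a1, Slc7a7, Slc7a8, Slc1a4, Slc36a1, Slc6a13 and Slc6a20b were then not called (adjusted p between 0.0528 and 0.433), whereas Slc38a9 (2.47, adjusted p = 0.00424) was called higher and Slc38a10 (-0.77, adjusted p = 0.0390) lower.

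**Figure D2:**
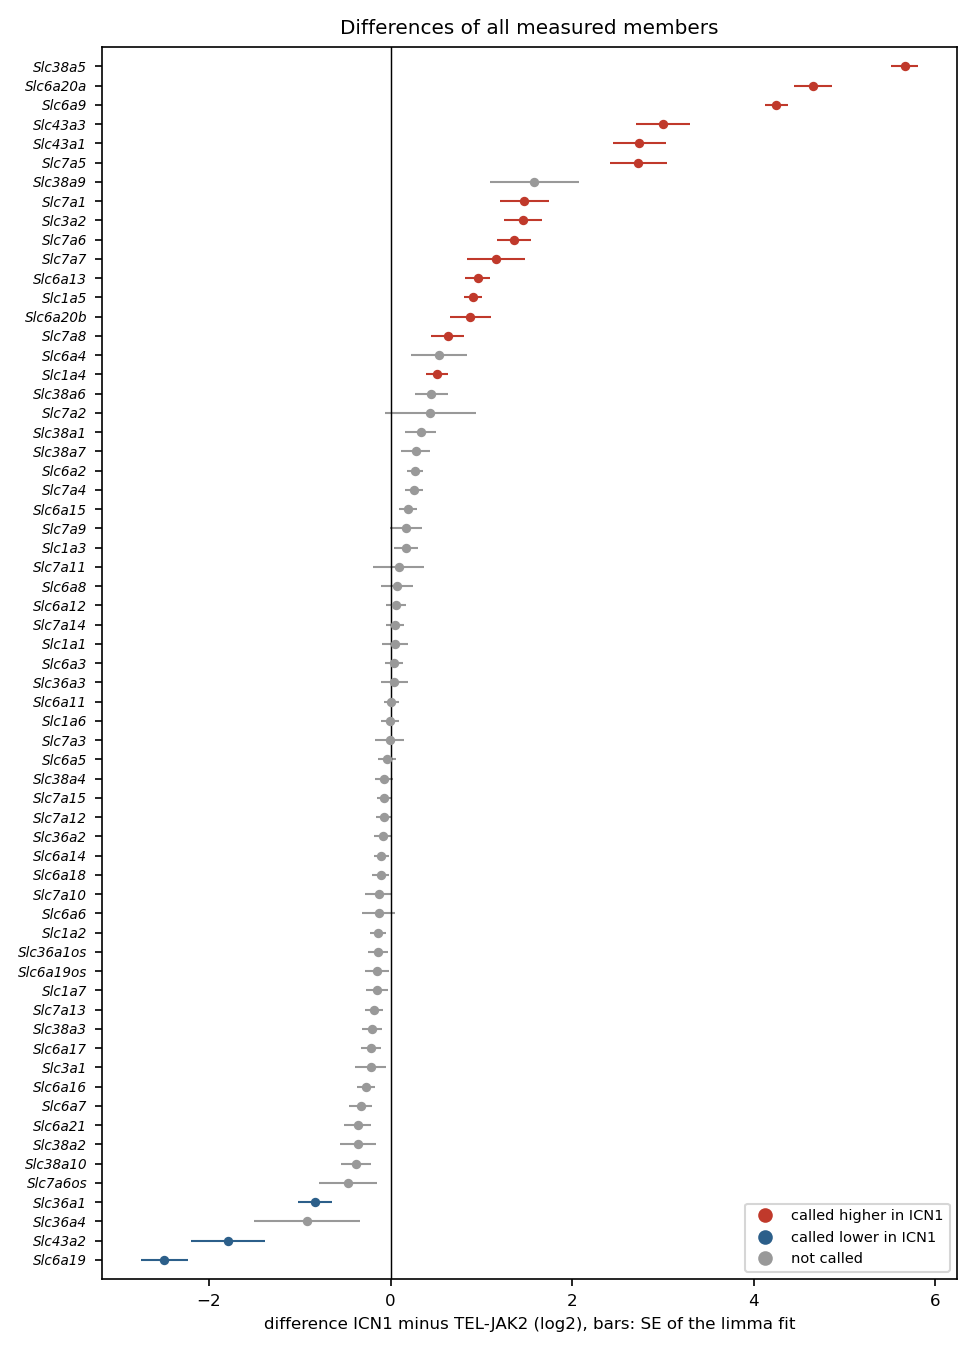
Difference ICN1 minus TEL-JAK2 (log2) of all 63 members, with bars for the SE of the limma fit on 3 ICN1 and 4 TEL-JAK2 arrays. Red points were called higher in ICN1 cells, blue points lower, and grey points were not called. The 6 largest differences, 2.73 to 5.66, all favour ICN1 cells, and Slc6a19 is lowest at -2.49.

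RefSeq promoter windows, from 250 bases before to 50 bases after a transcription start, were available for 46 members (67 windows, build GRCm38.p6). Slc1a5, Slc7a5 and Slc43a3 are named only. Windows were searched on both strands for 3 motifs: TGATGNAA, the element bound by ATF4 with C/EBP factors in genes of the amino acid response; CACGTG, the E-box bound by MYC; and TGGGAA, the core bound by RBPJ, the DNA-binding partner of NOTCH. No match overlapped another. The windows of 5 members, chosen after their values and matches were seen, are shown on the gene's strand with motif matches in capitals. Slc38a5 (plus strand, chrX:8271131-8271430) and Slc43a1 (plus strand, chr2:84840073-84840372) were higher in ICN1 cells and each held an E-box and an RBPJ core. Slc1a4 (minus strand, chr11:20332664-20332963) was higher and held an ATF4 element and an RBPJ core. Slc36a1 (plus strand, chr11:55204090-55204389) was lower and held 2 E-boxes. Slc7a11 (minus strand, chr3:50443564-50443863), which was not called, held 2 ATF4 elements and an RBPJ core.
Slc38a5: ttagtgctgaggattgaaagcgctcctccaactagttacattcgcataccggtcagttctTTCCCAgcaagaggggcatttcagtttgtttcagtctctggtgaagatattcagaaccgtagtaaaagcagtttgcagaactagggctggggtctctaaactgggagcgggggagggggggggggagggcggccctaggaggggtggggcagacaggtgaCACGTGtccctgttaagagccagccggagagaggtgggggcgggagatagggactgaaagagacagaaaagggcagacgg
Slc43a1: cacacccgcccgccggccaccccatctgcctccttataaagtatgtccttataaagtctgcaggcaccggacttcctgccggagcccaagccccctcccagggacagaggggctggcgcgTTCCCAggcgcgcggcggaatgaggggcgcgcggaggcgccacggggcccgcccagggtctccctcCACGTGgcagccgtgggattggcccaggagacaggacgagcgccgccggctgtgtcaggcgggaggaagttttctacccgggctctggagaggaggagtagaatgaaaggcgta
Slc1a4: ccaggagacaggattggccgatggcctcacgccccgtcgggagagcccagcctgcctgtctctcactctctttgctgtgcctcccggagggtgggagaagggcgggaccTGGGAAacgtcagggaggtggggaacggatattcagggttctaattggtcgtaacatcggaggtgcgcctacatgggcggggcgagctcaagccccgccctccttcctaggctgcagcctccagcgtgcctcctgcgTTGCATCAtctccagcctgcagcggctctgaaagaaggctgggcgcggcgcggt
Slc36a1: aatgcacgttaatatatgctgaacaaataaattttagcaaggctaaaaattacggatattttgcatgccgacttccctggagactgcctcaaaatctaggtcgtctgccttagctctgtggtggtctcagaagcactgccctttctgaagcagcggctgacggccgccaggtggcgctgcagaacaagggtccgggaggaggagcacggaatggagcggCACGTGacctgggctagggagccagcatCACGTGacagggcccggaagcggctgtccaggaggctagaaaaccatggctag
Slc7a11: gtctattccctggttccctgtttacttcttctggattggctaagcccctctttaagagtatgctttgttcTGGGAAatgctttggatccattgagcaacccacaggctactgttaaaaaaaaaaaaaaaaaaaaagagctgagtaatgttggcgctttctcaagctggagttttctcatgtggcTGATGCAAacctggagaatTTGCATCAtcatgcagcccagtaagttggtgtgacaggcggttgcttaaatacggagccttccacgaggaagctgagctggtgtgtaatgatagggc

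Counted over windows, the ATF4 element was in 3 of 22 windows (13.6%) of members higher in ICN1 cells, which belong to 2 genes, in 0 of 4 windows of members lower there, and in 2 of 41 (4.9%) of members not called. It was in 4.0% of all 32851 windows, which include those of genes not measured here. Of the 18109 windows of measured genes, 2.7% held the ATF4 element, 8.7% the E-box and 24.2% the RBPJ core. The E-box was in 2 of 22 windows (9.1%) of the higher members, in 1 of 4 of the lower and in 6 of 41 (14.6%) of those not called, against 7.2% of all windows. The RBPJ core, a short motif, was in 7 of 22 windows (31.8%) of the higher members, in 1 of 4 of the lower and in 11 of 41 (26.8%) of those not called, against 25.6% of all windows. Windows of 1 gene share sequence, so these counts are not independent.

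The heavy chain of the heteromeric transporters differed between the leukemias. Slc3a2 encodes 4F2hc (CD98), which carries its light chains to the cell surface. It read 11.40, 11.59 and 11.02 on the ICN1 arrays and 9.47, 10, 9.81 and 10.23 on the TEL-JAK2 arrays. All ICN1 arrays lay above all TEL-JAK2 arrays, a 2.75-fold difference (1.46 ± 0.21, adjusted p = 0.00276). Without ICN1 replicates 1 and 2 the difference was 1.15 and no longer called (adjusted p = 0.0609). Slc3a1, the heavy chain rBAT of kidney and gut, stayed under the background bound on all arrays, with 4.11 to 4.45 on the ICN1 arrays and 4.07 to 4.73 on the TEL-JAK2 arrays.

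Of 10 light chains, 4 were higher in ICN1 cells (40%, where 12.2% of all genes were), 0 were lower and 6 were not called. Slc7a5, the light chain of LAT1, read 10.12, 10.96 and 10.17 on the ICN1 arrays and 7.24, 7.92, 7.34 and 8.23 on the TEL-JAK2 arrays. It was 6.64-fold higher in ICN1 cells without overlap (2.73 ± 0.31, adjusted p = 0.00109), and the 4 TEL-JAK2 arrays themselves spread over 0.99. Slc7a6 encodes y+LAT2, which exports arginine and other cationic amino acids in exchange for neutral ones with sodium. It read 9.18, 9.37 and 9.93 on the ICN1 arrays and 8.06, 8.05, 8.05 and 8.37 on the TEL-JAK2 arrays, 2.57-fold higher in ICN1 cells (1.36 ± 0.19, adjusted p = 0.00247). A further probe set of Slc7a6 was also called higher (0.81, adjusted p = 0.0408 over all probe sets).

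The related Slc7a7 (y+LAT1) read 7.04, 6.84 and 6.07 on the ICN1 arrays and 5.45, 5.80, 4.84 and 5.86 on the TEL-JAK2 arrays. The groups lay 0.21 apart at their nearest arrays, and the difference of 1.16 ± 0.32 (adjusted p = 0.0351) lost its call in 5 of the 7 leave-one-out fits, those that dropped ICN1 replicate 1 or 2 (adjusted p = 0.112 and 0.107) and those that dropped TEL-JAK2 replicate 1, 2 or 3 (0.0844, 0.0503 and 0.0581). Its further probe set was not called (0.63, adjusted p = 0.132). That probe set read 5.91, 5.11 and 5.03 on the ICN1 arrays and passed the bound only in ICN1 replicate 1. The macrophage list stood beside it at 10.13, 9.93 and 8.81 on the ICN1 arrays and 6.98, 8.26, 6.27 and 8.48 on the TEL-JAK2 arrays. In both leukemias the arrays with the lowest macrophage level, ICN1 replicate 3 and TEL-JAK2 replicate 3, were also the arrays lowest in Slc7a7. The same arrays were lowest for the erythroid, granulocyte, dendritic cell and B-lineage lists too, so that the match was not particular to macrophages. The part of macrophages or other cells in the level of Slc7a7 was not tested.

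Slc7a8 (LAT2) was called at levels under the background bound, with 4.77, 4.77 and 4.67 on the ICN1 arrays and 3.93, 4.49, 3.76 and 4.24 on the TEL-JAK2 arrays (0.63 ± 0.18, adjusted p = 0.0389). Leaving out any single array except TEL-JAK2 replicate 2 ended its call (adjusted p between 0.0539 and 0.104). Slc7a11 encodes xCT, which imports cystine for glutathione synthesis. It read 4.67, 5.49 and 4.21 on the ICN1 arrays and 4.80, 4.58, 4.87 and 4.53 on the TEL-JAK2 arrays, not above background in either leukemia, and the difference was not called (0.09 ± 0.28, adjusted p = 0.847). Slc7a9, Slc7a10, Slc7a12, Slc7a13 and Slc7a15, light chains or relatives found chiefly in other tissues, were under the bound on all arrays, with means of 3.48 to 4.82 in ICN1 cells and 3.56 to 5 in TEL-JAK2 cells.

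Among 5 cationic amino acid transporters, Slc7a1 alone was called (20%, where 24.1% of all genes were). Slc7a1 encodes CAT1, the main importer of arginine and lysine in most cells. It read 10.87, 10.61 and 10.30 on the ICN1 arrays and 8.72, 9.27, 8.78 and 9.71 on the TEL-JAK2 arrays. The groups did not overlap, a 2.78-fold difference (1.47 ± 0.27, adjusted p = 0.00734) that was not called without ICN1 replicates 1 and 2 (1.18, adjusted p = 0.129). Of its further probe sets, 1 was called higher (1.71, adjusted p = 0.00485) and 1, averaging 4.49 in ICN1 cells and 4.38 in TEL-JAK2 cells, was not. Slc7a4 read 7.57, 7.72 and 7.44 on the ICN1 arrays and 7.38, 7.28, 7.34 and 7.27 on the TEL-JAK2 arrays, above background in both leukemias. It was not called (0.26 ± 0.10, adjusted p = 0.101), although the groups did not overlap. Further probe sets of Slc7a4 were under the bounds, with means of 5.29 and 4.64 in ICN1 cells and 5.08 and 4.44 in TEL-JAK2 cells.

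Slc7a2, the inducible arginine carrier CAT2, was not above background but varied within each leukemia. It read 4.27, 5.31 and 4.24 on the ICN1 arrays and 3.44, 4.96, 3.38 and 4.89 on the TEL-JAK2 arrays, and the groups overlapped (0.44 ± 0.50, adjusted p = 0.582). TEL-JAK2 replicates 2 and 4 were the high ones, as they were for the macrophage list (8.26 and 8.48, against 6.98 and 6.27 in TEL-JAK2 replicates 1 and 3). Slc7a3 and Slc7a14 were under the bound on all arrays, with means of 4.95 and 3.47 in ICN1 cells and 4.96 and 3.43 in TEL-JAK2 cells.

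All 3 SLC43 genes were called, where 24.1% of all genes were, and they did not move together. Slc43a1 encodes LAT3, which lets leucine and other large neutral amino acids pass without sodium or exchange. It read 10.92, 10.80 and 10.76 on the ICN1 arrays and 8.13, 7.28, 8.55 and 8.39 on the TEL-JAK2 arrays, 6.67-fold higher in ICN1 cells (2.74 ± 0.29, adjusted p = 0.000833). Slc43a2 encodes LAT4, a carrier of the same kind, and was lower in ICN1 cells, with 8.47, 9.41 and 7.52 on the ICN1 arrays and 10.26, 10.04, 10.70 and 10.02 on the TEL-JAK2 arrays (3.45-fold, -1.79 ± 0.41, adjusted p = 0.0193). The groups of LAT4 did not overlap, but its 3 ICN1 arrays spread over 1.89.

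The call of Slc43a2 was lost without ICN1 replicate 1 (adjusted p = 0.0555) or TEL-JAK2 replicate 1 (0.0515), while the difference reached -2.73 (adjusted p = 0.00638) without ICN1 replicates 1 and 2. Both further probe sets of Slc43a2 were also called lower in ICN1 cells (-1.80 and -1.33, adjusted p = 0.0290 and 0.00464). Slc43a3, which belongs to the family by sequence but transports purine nucleobases, read 10.88, 10.43 and 9.71 on the ICN1 arrays and 7.49, 7.08, 7.02 and 7.77 on the TEL-JAK2 arrays. It was 7.99-fold higher in ICN1 cells (3.0 ± 0.30, adjusted p = 0.000682), and by 2.37 without ICN1 replicates 1 and 2 (adjusted p = 0.0125).

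Of 7 sodium-coupled carriers of neutral amino acids, 3 were higher in ICN1 cells and 4 were not called. The higher ones made up 42.9%, against 12.2% of all genes. Slc38a5 had the largest measured difference of all members. It encodes SNAT5, which takes up glutamine, serine and glycine and exchanges protons. It read 9.61, 9.49 and 9.07 on the ICN1 arrays, all far above background, and 3.74, 3.85, 3.76 and 3.56 on the TEL-JAK2 arrays, all far below it. The measured values differed by 5.66 ± 0.15 (adjusted p = 1.32e-06), and by 5.35 without ICN1 replicates 1 and 2. Because the TEL-JAK2 values give no level above background, the fold was taken against the bound on each TEL-JAK2 array, as for other genes given as at least so many fold, and was at least 13.5-fold.

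Slc1a5 encodes ASCT2, a glutamine exchanger often raised in tumours. It read 10.29, 10.40 and 10.13 on the ICN1 arrays and 9.24, 9.40, 9.39 and 9.40 on the TEL-JAK2 arrays. Both groups were tight and did not overlap, so that a 1.88-fold difference was called (0.91 ± 0.10, adjusted p = 0.000972), and a further probe set was called in the same direction (0.83, adjusted p = 0.0266). Slc1a4, the alanine, serine and cysteine carrier ASCT1, was called near background, with 5.46, 5.56 and 5.35 on the ICN1 arrays and 5.01, 4.94, 5.11 and 4.71 on the TEL-JAK2 arrays (0.51 ± 0.12, adjusted p = 0.0196). It lost the call without ICN1 replicate 1 or 2 (adjusted p = 0.0581 and 0.0658), and with cross-hybridizing probe sets excluded (0.25, adjusted p = 0.412). Of its 2 further probe sets 1 was called (0.78, adjusted p = 0.00442).

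SNAT1 and SNAT2, the carriers that lymphocytes use for glutamine and other small neutral amino acids, were far above background in both leukemias. Slc38a1 read 11.45, 11.38 and 11.50 on the ICN1 arrays and 11.11, 10.70, 11.20 and 11.46 on the TEL-JAK2 arrays, with overlap (0.33 ± 0.17, adjusted p = 0.226). Slc38a2 read 11.15, 11.03 and 11.57 on the ICN1 arrays and 11.86, 11.50, 11.84 and 11.25 on the TEL-JAK2 arrays, again with overlap (-0.36 ± 0.20, adjusted p = 0.237). Its 2 further probe sets were called lower in ICN1 cells (-1.04 and -0.85, adjusted p = 0.00534 and 0.0433), and so was the mean of its probe sets (-0.75, adjusted p = 0.0207), whereas CD3 centring turned the difference to 0.26. Slc38a3, the SNAT3 of liver and kidney, averaged 5.87 in ICN1 cells and 6.07 in TEL-JAK2 cells, close to the bound, and Slc38a4 stood under it with 3.33 in ICN1 cells and 3.41 in TEL-JAK2 cells. Neither was called.

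Of 8 lysosomal and other SLC36 and SLC38 carriers, 7 were above background in both leukemias, 1 was lower in ICN1 cells and 0 were higher. The lower one was Slc36a1, which encodes PAT1, a proton-coupled carrier that exports small neutral amino acids from lysosomes. It read 7.37, 7.33 and 7.30 on the ICN1 arrays and 8.47, 7.90, 8.47 and 7.82 on the TEL-JAK2 arrays, 1.78-fold lower in ICN1 cells without overlap (-0.83 ± 0.19, adjusted p = 0.0178). The call was lost without ICN1 replicates 2 or 3 (adjusted p = 0.0527 and 0.0503), and with CD3 centring the difference was -0.21 (adjusted p = 0.299).

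Slc38a9, the lysosomal carrier that signals arginine to mTORC1, was uneven between the ICN1 arrays. It read 8.64, 10.44 and 10.87 on the ICN1 arrays and 8.33, 8.23, 8.32 and 8.74 on the TEL-JAK2 arrays. ICN1 replicate 1 thus lay inside the TEL-JAK2 range and the other 2 ICN1 arrays well above it. Over all arrays the difference of 1.58 ± 0.49 missed the threshold (adjusted p = 0.0562), and without ICN1 replicate 1 it was 2.25 (adjusted p = 0.00118). It was also called when only genes above the median array value were tested (1.58, adjusted p = 0.0367). All 6 further probe sets of this gene read higher in ICN1 cells, by 0.84 to 2.30, and 2 of them were called.

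Slc36a4, a high-affinity carrier of proline and tryptophan, was also uneven, with 7.60, 5.77 and 8.03 on the ICN1 arrays and 8.62, 8.38, 7.15 and 8.08 on the TEL-JAK2 arrays (-0.92 ± 0.58, adjusted p = 0.308). ICN1 replicate 2 was the low array. Slc38a10 averaged 10.06 in ICN1 cells and 10.44 in TEL-JAK2 cells and was not called from its brightest probe set (-0.38 ± 0.17, adjusted p = 0.159), though the mean of its probe sets was called (-0.39, adjusted p = 0.00886). All 6 further probe sets of Slc38a10 read lower in ICN1 cells, by -0.24 to -0.71, and 2 were called. Slc38a7, a lysosomal exporter of glutamine and asparagine, averaged 6.76 in ICN1 cells and 6.47 in TEL-JAK2 cells, and Slc38a6 averaged 7.45 in ICN1 cells and 7.0 in TEL-JAK2 cells. Slc36a3 stood near the bound with 6.03 in ICN1 cells and 5.99 in TEL-JAK2 cells, and Slc36a2 under it with 5.22 in ICN1 cells and 5.31 in TEL-JAK2 cells. None of these 4 genes was called.

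The carriers of glutamate and aspartate, best known from brain, gave no call in 5 members. Slc1a1, Slc1a2, Slc1a6 and Slc1a7 had means of 4.06 to 5.51 in ICN1 cells and 4.07 to 5.66 in TEL-JAK2 cells, and none was above background on every array of a leukemia. Slc1a3 is described above.

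Among 10 SLC6 carriers of glycine, proline and neutral amino acids, 3 were higher in ICN1 cells, 1 was lower and 6 were not called. These shares of 30% higher and 10% lower stand beside 12.2% and 11.9% of all genes. Slc6a9 encodes GlyT1, a sodium- and chloride-coupled glycine transporter that red cell precursors use to supply glycine for heme. It read 9.79, 10.26 and 10.04 on the ICN1 arrays and 5.79, 5.85, 5.80 and 5.69 on the TEL-JAK2 arrays, where the TEL-JAK2 values barely passed their bounds of 5.55 to 5.76. The difference was 4.25 ± 0.13 (19.0-fold between the measured values, adjusted p = 2e-06), and a further probe set differed by 2.00 (adjusted p = 0.000126).

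Slc6a20a encodes a sodium-coupled carrier of proline and related imino acids. It read 8.65, 8.0 and 7.72 on the ICN1 arrays and 3.39, 3.42, 3.44 and 3.62 on the TEL-JAK2 arrays, under the bound on all 4. The measured values differed by 4.65 ± 0.21 (adjusted p = 1.72e-05), which against the background bound is at least 5.59-fold. Its neighbour and close relative Slc6a20b was called under the background bound on all but 1 array, with 4.76, 5.62 and 4.80 on the ICN1 arrays and 4.48, 4.09, 3.98 and 4.20 on the TEL-JAK2 arrays (0.88 ± 0.23, adjusted p = 0.0320). That call was lost without TEL-JAK2 replicates 2, 3 or 4 (adjusted p = 0.0776, 0.0791 and 0.0609), and a further probe set read 0.06 (adjusted p = 0.811). Whether probes of Slc6a20b detect transcripts of Slc6a20a was not tested.

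Slc6a19 was the member with the largest difference in favour of TEL-JAK2 cells. It encodes B0AT1, the sodium-coupled carrier of neutral amino acids in small intestine and kidney. It read 4.98, 5.66 and 5.22 on the ICN1 arrays and 7.45, 8.09, 8.18 and 7.38 on the TEL-JAK2 arrays, at least 4.51-fold lower in ICN1 cells, where it passed the bound on 1 of 3 arrays (-2.49 ± 0.26, adjusted p = 0.000754). A further probe set was also called lower (-2.01, adjusted p = 0.00354), and the call was kept in all 7 fits without 1 array and with CD3 centring (-1.87). Slc6a7 and Slc6a17, known from neurons, stood slightly above background in both leukemias, with means of 5.88 and 6.30 in ICN1 cells and 6.21 and 6.53 in TEL-JAK2 cells, and were not called, although the groups of Slc6a7 did not overlap. Slc6a5, Slc6a14, Slc6a15 and Slc6a18 were under the bound, with means of 3.86 to 4.47 in ICN1 cells and 3.67 to 4.59 in TEL-JAK2 cells.

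Of 10 SLC6 genes for monoamines, GABA, taurine, creatine or an unassigned substrate, 1 was called (10%, where 24.1% of all genes were). Slc6a13, a GABA and taurine carrier of liver and kidney, read 5.96, 6.18 and 5.91 on the ICN1 arrays, just above the bound, and 5.06, 5.22, 4.77 and 5.16 on the TEL-JAK2 arrays (0.96 ± 0.14, adjusted p = 0.00269). Slc6a6, the taurine transporter, was well above background in both leukemias, with 9.14, 9.17 and 9.77 on the ICN1 arrays and 9.36, 9.39, 9.56 and 9.67 on the TEL-JAK2 arrays. Its groups overlapped (-0.13 ± 0.18, adjusted p = 0.638), and the sign turned with CD3 centring (0.49) and without ICN1 replicates 1 and 2 (0.28).

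The serotonin transporter Slc6a4, which platelets carry, read 5.66, 6.85 and 5.57 on the ICN1 arrays and 5.49, 5.22, 5.57 and 5.72 on the TEL-JAK2 arrays (0.53 ± 0.31, adjusted p = 0.278). ICN1 replicate 2 was the high array, and the mean of 6 megakaryocyte and platelet genes was also highest there, at 8.25. It was 7.12 and 6.57 in ICN1 replicates 1 and 3 and 5.39 to 5.74 on the TEL-JAK2 arrays. Among the ICN1 arrays, replicate 2 was also highest for the granulocyte (7.45), B-lineage (7.50), dendritic cell (7.65) and T-lineage (11.43) lists. The part of platelets in the level of Slc6a4 was not tested. The noradrenaline transporter Slc6a2 averaged 6.36 in ICN1 cells and 6.09 in TEL-JAK2 cells, and the creatine transporter Slc6a8 averaged 5.42 in ICN1 cells and 5.35 in TEL-JAK2 cells. Further probe sets of Slc6a2 averaged 3.64 to 4.49 in ICN1 cells, under the bounds, with differences of -0.21 to 0.08. Slc6a3, Slc6a11, Slc6a12, Slc6a16 and Slc6a21 were under the bound, with means of 3.71 to 4.71 in ICN1 cells and 3.66 to 4.83 in TEL-JAK2 cells. None of these 7 genes was called, although the groups did not overlap for Slc6a2, higher in ICN1 cells, and Slc6a16, lower there.

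None of the 3 opposite-strand genes was called. Slc7a6os, a protein-coding gene beside Slc7a6, was above background in both leukemias, with 6.64, 5.85 and 6.95 on the ICN1 arrays and 7.13, 7.10, 7.23 and 6.32 on the TEL-JAK2 arrays (-0.47 ± 0.32, adjusted p = 0.344). Its other probe set went the opposite way and was called (0.68, adjusted p = 0.0393), so that no direction can be given for it. Slc36a1os and Slc6a19os were under the bound, with means of 4.65 and 3.63 in ICN1 cells and 4.79 and 3.78 in TEL-JAK2 cells.

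Several of the largest differences had the same direction as the erythroid markers. For scale, 15.9% of all genes were higher in ICN1 cells without overlap. On the ICN1 arrays the mean of the erythroid list was 11.49, 11.40 and 11.26, and the anion exchanger Slc4a1 and the membrane protein Rhag, which define red cells, averaged 13.84 and 11.89. On the TEL-JAK2 arrays the list mean was 6.15, 6.31, 5.99 and 6.03, and Slc4a1 and Rhag averaged 5.07 and 3.30, not above background. Within ICN1 cells Slc38a5 and Slc43a1 fell from replicate 1 to 3 as the erythroid list did, and Slc6a9 did not. The macrophage (10.13, 9.93 and 8.81) and stromal (7.08, 6.98 and 5.84) lists fell in the same order, as did Slc43a3, Slc6a20a and Slc7a1. That order was thus particular neither to the erythroid list nor to Slc38a5 and Slc43a1. In TEL-JAK2 replicate 2, where the erythroid list was highest, Slc43a1 was lowest (7.28), while Slc38a5 (3.85) and Slc6a9 (5.85) were highest, under or near background. Slc38a5, Slc6a9 and Slc43a1 are also expressed by red cell precursors, and the part of such cells in their levels, or in those of Slc3a2, Slc7a1 and Slc7a5, was not tested. The T-lineage list ran the other way, with 9 of 14 genes lower in ICN1 cells (64.3%) and 1 higher. Of all genes, 12.2% were called higher and 11.9% lower. Among other cell types, 5 of 13 granulocyte (38.5%) and 4 of 6 megakaryocyte genes (66.7%) were higher in ICN1 cells. Of 10 thymic epithelial genes, 4 (40%) were lower, and 0 of 11 dendritic cell genes were called. The 1 of 11 stromal genes higher and the 1 of 11 B-lineage genes lower (9.09% each) stayed under the shares of all genes.

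**Figure D3:**
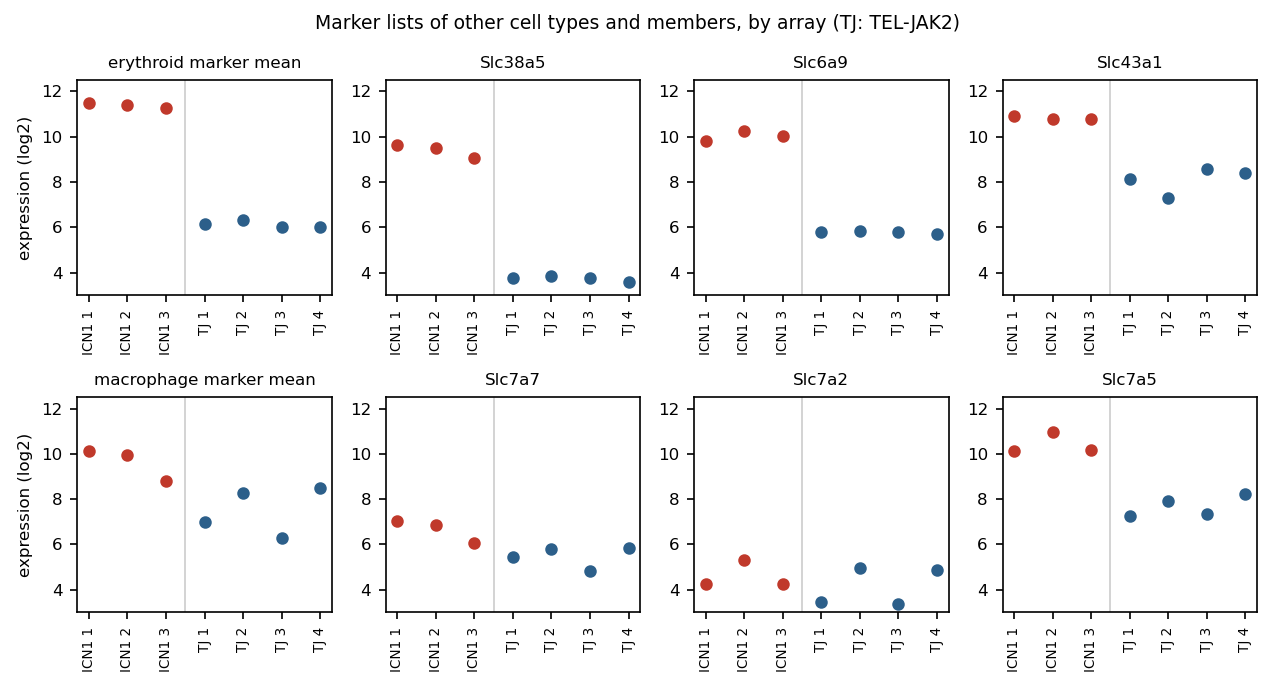
Mean level of the erythroid list (11 genes) and of the monocyte and macrophage list (12 genes) beside 6 members, as log2 expression on each array, with ICN1 in red and TEL-JAK2 (TJ) in blue. The ICN1 and TEL-JAK2 arrays form separate levels in the erythroid panel and in those of Slc38a5, Slc6a9 and Slc43a1, while the macrophage list, Slc7a7 and Slc7a2 also differ between TEL-JAK2 replicates 2 and 4 and TEL-JAK2 replicates 1 and 3.

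Within a leukemia most members varied little. Among the 31 members above background in at least 1 leukemia, the median range over the arrays was 0.54 in ICN1 cells and 0.51 in TEL-JAK2 cells. A range over 1 was seen for 5 members in ICN1 cells (Slc38a9, Slc36a4, Slc43a2, Slc43a3 and Slc7a6os) and for 3 in TEL-JAK2 cells (Slc36a4, Slc43a1 and Slc7a7), named after their values were seen. Slc7a5, Slc3a2 and Slc7a1 were each higher in TEL-JAK2 replicates 2 and 4 (7.92 and 8.23, 10 and 10.23, 9.27 and 9.71) than in TEL-JAK2 replicates 1 and 3 (7.24 and 7.34, 9.47 and 9.81, 8.72 and 8.78). Replicates 2 and 4 were also high for the macrophage list and for Myc (9.89 and 10.26, against 9.59 and 9.39). The same held for 2 lists described below, the amino acid starvation response (8.19 and 8.10, against 7.91 and 7.93) and the enzymes that use the amino acids (7.94 and 7.81, against 7.42 and 7.48). The part of any of these was not tested.

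Genes that respond to amino acid shortage through the transcription factor ATF4 were compared next, since ATF4 is known to induce Slc7a5, Slc3a2, Slc7a11 and Slc38a2. Of 29 genes measured, 8 were higher in ICN1 cells (27.6%, where 12.2% of all genes were), 1 was lower (3.45%, where 11.9% of all genes were) and 20 were not called, with a median difference of 0.17 against -0.04 over all genes. Among all genes above background in either leukemia, 19.9% were higher and 18.8% lower, and 5 of these 29 genes were above it in neither. Asns, the asparagine synthetase, read 10.37, 10.64 and 9.55 on the ICN1 arrays and 5.27, 6.88, 6.17 and 6.5 on the TEL-JAK2 arrays, above the bound on 3 of the 4. It was at least 15-fold higher in ICN1 cells (3.98 ± 0.41, adjusted p = 0.000773). Ppp1r15a (GADD34), which restores translation after stress, was 20.5-fold higher (4.36 ± 0.24, adjusted p = 4.07e-05), Shmt2 of mitochondrial serine metabolism 2.70-fold (1.43 ± 0.17, adjusted p = 0.00133) and Atf4 itself 1.81-fold (0.86 ± 0.11, adjusted p = 0.002). The stress genes Ddit3 (-0.36), Trib3 (-0.15) and Chac1 (0.30) were not called, nor was Eif2ak4, the amino acid sensor GCN2 (0.17). The 1 lower gene was Cebpb (-1.04 ± 0.25, adjusted p = 0.0210). With CD3 centring 18 genes were higher and 0 lower.

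Of 31 genes of the machinery that signals amino acids to mTORC1, 4 were higher in ICN1 cells (12.9%, where 12.2% of all genes were), 7 were lower (22.6%, where 11.9% of all genes were) and 20 were not called (median -0.04). Only 1 of the 31 was above background in neither leukemia. Among all genes above background in either, 19.9% were higher and 18.8% lower, so that the share of lower genes was near that of expressed genes. Fnip2, a partner of folliculin, was at least 7.60-fold higher (3.15 ± 0.30, adjusted p = 0.000544), and Rragd, a Rag GTPase, at least 5.67-fold higher (2.71 ± 0.37, adjusted p = 0.00233), since each passed the bound on 2 of the 4 TEL-JAK2 arrays. Lamtor4 and Lamtor2, subunits of the Ragulator complex that anchors the Rag GTPases to the lysosome, were lower (-0.95 ± 0.10 and -0.99 ± 0.13, adjusted p = 0.000859 and 0.00211). With CD3 centring 16 genes were higher and 1 was lower, and neither Lamtor4 nor Lamtor2 was called (adjusted p = 0.114 and 0.0712). The count of lower genes was 4 without ICN1 replicate 2 or TEL-JAK2 replicate 3, and that of higher genes was 2 without ICN1 replicate 2 or 3. Without ICN1 replicates 1 and 2 the counts were 2 higher and 3 lower.

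Amino acid transporters outside these families gave 3 higher (13.6%), 2 lower (9.09%) and 17 uncalled genes of 22 measured (median -0.01), shares near the 12.2% and 11.9% of all genes. Slc25a38, the mitochondrial glycine carrier of heme synthesis, was 2.81-fold higher in ICN1 cells (1.49 ± 0.15, adjusted p = 0.000656), and Slc16a10, a carrier of aromatic amino acids, 3.48-fold higher (1.80 ± 0.34, adjusted p = 0.00933). Mfsd12, a lysosomal cysteine importer, was 1.56-fold higher (0.64 ± 0.13, adjusted p = 0.0105). Slc25a12, a mitochondrial aspartate and glutamate carrier, read 10.04, 10.15 and 9.21 on the ICN1 arrays and 12.02, 11.52, 12.05 and 12.41 on the TEL-JAK2 arrays, 4.59-fold lower in ICN1 cells (-2.20 ± 0.28, adjusted p = 0.00185). Slc15a1, a peptide carrier of the gut, was lower as well (-2.45 ± 0.61, adjusted p = 0.0251). Leaving out 1 array gave 1 to 3 lower genes, with 3 when TEL-JAK2 replicate 2 was dropped, 2 when ICN1 replicate 1 was and 1 in the other fits. Without ICN1 replicates 1 and 2, 1 gene was higher and 1 lower, and Slc16a10 (1.39, adjusted p = 0.123) and Mfsd12 (0.50, adjusted p = 0.0929) were not called. With CD3 centring 12 genes were higher and 2 lower.

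Of 23 enzymes that use the transported amino acids, 8 were higher in ICN1 cells (34.8%, where 12.2% of all genes were), 3 were lower (13%, where 11.9% of all genes were) and 12 were not called (median 0.27). Among all genes above background in either leukemia, 19.9% were higher and 18.8% lower, and 4 of these 23 enzymes were above it in neither. Gclm and Gclc, the subunits of the enzyme that starts glutathione synthesis from glutamate and cysteine, were 15.1-fold (3.92 ± 0.21, adjusted p = 4e-05) and 3.46-fold higher (1.79 ± 0.09, adjusted p = 2.12e-05). Odc1, which begins polyamine synthesis from ornithine, was 3.79-fold higher (1.92 ± 0.12, adjusted p = 9.91e-05). Asns and the erythroid heme enzyme Alas2 (6.09 ± 0.76, adjusted p = 0.00164) belong to this list too, and each is also in another list used here. The 3 lower genes, Prodh, Kyat1 and Glud1 (-3.30, -0.60 and -0.40), did not hold over arrays: 0 genes were lower without TEL-JAK2 replicate 1, 2 or 3, and 1 without ICN1 replicate 1 or 2 or without both. With CD3 centring 15 genes were higher and 1 lower.

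**Figure D4:**
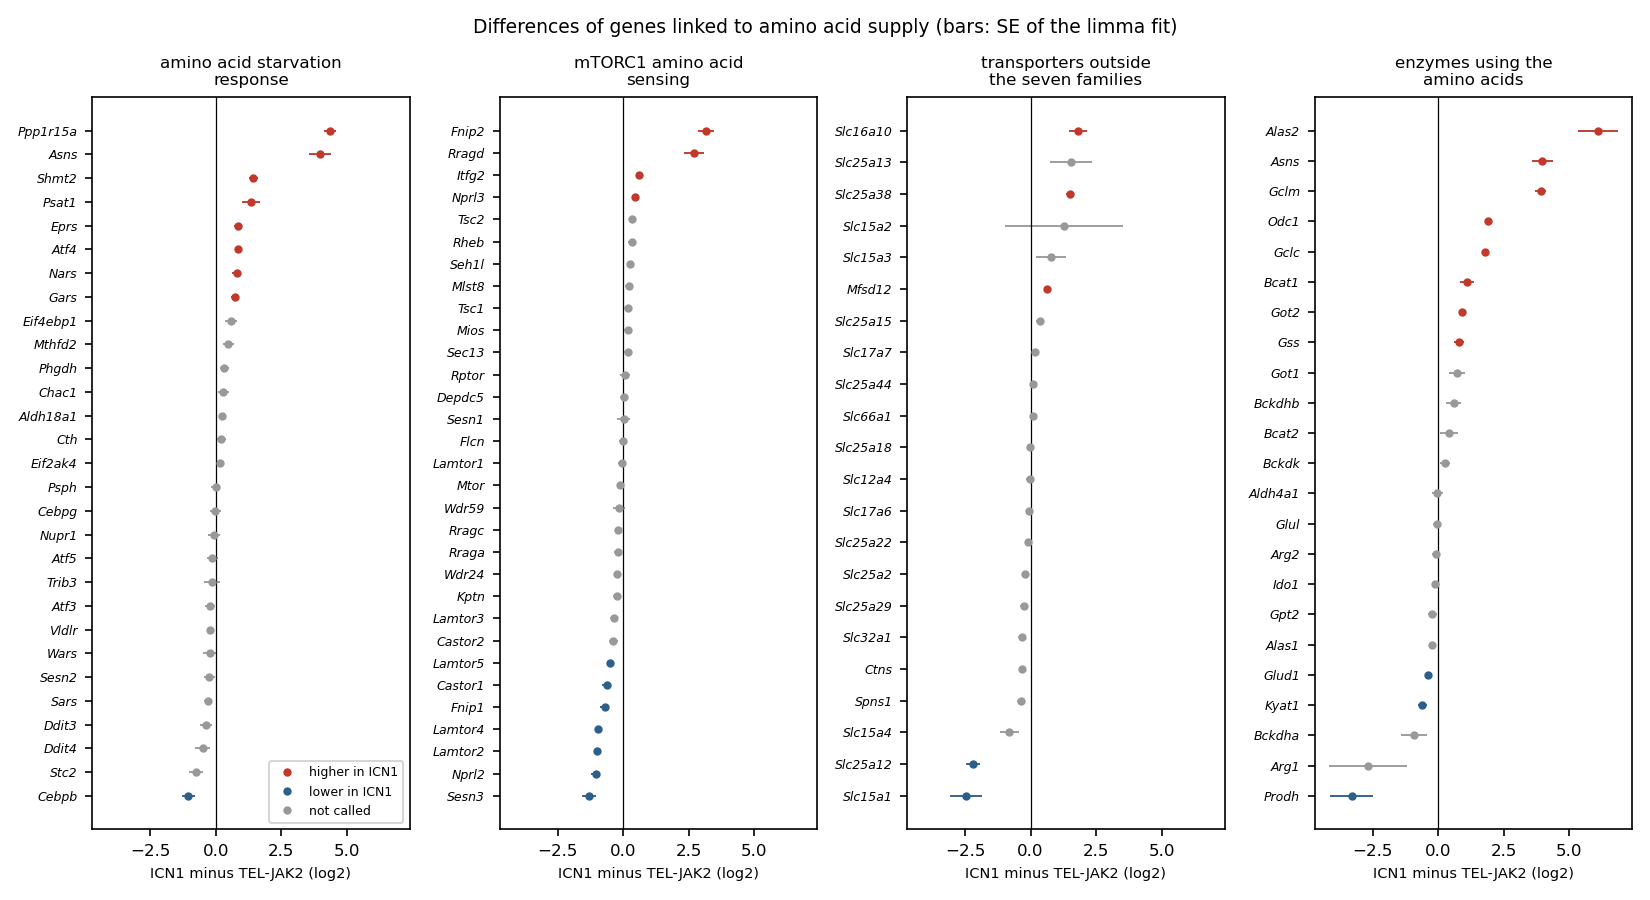
Difference ICN1 minus TEL-JAK2 (log2) of each measured gene in 4 lists tied to amino acid supply, with bars for the SE of the limma fit (3 ICN1 and 4 TEL-JAK2 arrays), red for called higher in ICN1 cells, blue for called lower and grey for not called. Ppp1r15a and Asns lead the starvation response panel at 4.36 and 3.98 while most genes there lie near 0.

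Further probe sets bore on how firmly single members can be read. Of 12 further probe sets of 9 called members, 8 were called in the same direction and 4 were not called, 1 each of Slc1a4, Slc6a20b, Slc7a1 and Slc7a7. Of 50 further probe sets of 23 members that were not called, 43 were not called either, and the 7 exceptions belonged to Slc38a2, Slc38a9, Slc38a10 and Slc7a6os.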

How the data were processed

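Gene expression was measured in 3 ICN1 and 4 TEL-JAK2 leukemic cell suspensions, 1 Affymetrix array each. The deposited table holds log2 values that the submitters' processing notes credit to RMA, with a version not given in the sources used here. RMA draws arrays to 1 distribution and compresses folds near background. No further normalization was applied. Where 1 leukemia was not above background, a fold was bounded with each of its arrays raised to at least the background bound. Detection calls and batches were not analysed here, and the number of arrays limits the precision.

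Of 45037 probe sets, 34945 had 1 gene symbol in the platform annotation, 932 several and 9160 none. Gene identifiers of 34741 were matched in RefSeq (GRCm38.p6), which updated 0 symbols. The 18193 genes were fitted with limma 3.58.1 in R 4.3.3 (lmFit, eBayes without trend, two-sided), with Benjamini-Hochberg adjustment over all of them, and probe sets singly over all 45037. The fit was tested on simulated data. Figures were drawn with matplotlib 3.10.9.

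Members and lists were chosen with earlier results of these data known. The rule for named genes gave every member once and values on every array for 16 transporters picked by role and for the 10 called members with the largest differences in each direction; further genes with such values were added after their values were seen. Up to 4 called genes with the smallest adjusted p were named per further list, and other genes of those lists after their values were seen. Alternatives were averaged probe sets, exclusion of cross-hybridizing ones, a filter on dim genes, 4 scalings, trended robust moderation, weighted arrays, limma's treat at 1.5-fold, unequal variances, an adjusted p under 0.01, each array left out, and no ICN1 replicates 1 and 2. For the background level, the bound, the probe set, the scaling and the arrays needed were varied; leaving out ICN1 replicates 1 and 2 there was added after seeing the data.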

Additional observations from a re-analysis of the deposited data

Results flagged for a closer look

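In 3 of 63 members 1 TEL-JAK2 array stood apart from the other 3, where chance flags about 1 in 20 groups. The gap to the nearest array was 0.923 of the whole range for Slc1a5 (9.24 in TEL-JAK2 replicate 1, against 9.39 to 9.40), 0.966 for Slc7a6 (8.37 in TEL-JAK2 replicate 4, against 8.05 to 8.06) and 0.858 for Slc7a6os (6.32 in TEL-JAK2 replicate 4, against 7.10 to 7.23). The calls of Slc1a5 and Slc7a6 were kept without these arrays. TEL-JAK2 replicate 4 also differed from the other TEL-JAK2 arrays in Xist and Eif2s3y, and the part of this was not tested. Groups of 3 arrays were not examined in this way.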

How the results depend on the processing

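Among members, the 15 higher and 3 lower calls of limma became 13 and 5 with probe sets averaged per gene, 12 and 3 without cross-hybridizing probe sets, 11 and 3 with only genes above the median array value, 47 and 2 with CD3 centring, 8 and 1 in a test against a 1.5-fold difference, 10 and 1 with unequal variances, 11 and 1 at an adjusted p under 0.01, and 9 and 3 without ICN1 replicates 1 and 2. Over all genes the 2215 higher and 2165 lower calls became 11410 and 787 with CD3 centring, 672 and 515 against a 1.5-fold difference, 888 and 744 with unequal variances, 1204 and 987 at an adjusted p under 0.01, and 1557 and 1039 without ICN1 replicates 1 and 2. Leaving out 1 array gave 12 to 14 higher and 2 to 3 lower members, and 1685 to 2066 higher and 1524 to 2170 lower genes. The difference of Slc38a2 turned to 0.26 and that of Slc6a6 to 0.49 with CD3 centring, that of Slc6a6 to 0.28 and that of Slc7a11 to -0.49 without ICN1 replicates 1 and 2, and that of Slc7a11 ran between -0.25 and 0.38 over the fits without 1 array, with -0.25 without ICN1 replicate 2; none was called in these fits. The cause of these changes was not tested. Members above background numbered 20 to 31 in ICN1 cells and 18 to 29 in TEL-JAK2 cells under other bounds, probe sets, scaling and array rules, and 32 and 26 without ICN1 replicates 1 and 2. No paired analysis was possible because the labels give no replicate number that the leukemias share. Signal near background limits Slc1a4, Slc6a20b and Slc7a8, which were called at or under the bound.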
